A study of Mus musculus with 144 samples.

Results

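Total liver RNA of Bmal1-/- mice was compared with that of wild-type mice at 1 time of day, ZT10 (zeitgeber time, hours after lights on), late in the light phase. The comparison took every total RNA library that the labels place at ZT10, which is 6 Bmal1-/- and 6 wild-type libraries, 12 of the 144 libraries of the series. The series also holds nuclear and polysomal RNA of wild-type liver and 5 other times of day, and the 60 total RNA libraries of those other times were used here only to ask whether a difference was larger or smaller at ZT10. All groups used were male C57BL/6J mice that had 12 h light and 12 h dark each day and free access to food and water, and the ages, the altered part of the gene and the tissue in which it was altered are not given in the labels. The RNA was read by QuantSeq, a 3′ method that counts 1 tag per transcript near its poly(A) tail. The labels do not say whether the 6 libraries of a group came from separate animals, so the p-values below measure the spread between these libraries, which may be partly technical.

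Bmal1, whose gene symbol in the files is Arntl, is a transcription factor of the circadian clock. With its partner CLOCK or NPAS2 it binds E-box sequences and activates the Per, Cry and Nr1d genes, whose products repress the activators in turn and so close the loop. In liver the clock times bile acid, lipid, glucose and xenobiotic metabolism, partly through the PAR bZIP factors DBP, TEF and HLF, which bind D-box sequences, and through the nuclear receptors REV-ERB (Nr1d1, Nr1d2) and ROR, which compete for RORE sequences.

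The targeted gene itself was counted in every library. Arntl stood at 0.251 to 1.63 CPM (counts scaled to a library of 1000000 gene counts) with a median of 0.769 in wild type, and at 9.26 to 15.8 CPM with a median of 11.8 in Bmal1-/-. All 6 Bmal1-/- libraries therefore lay above all 6 wild-type libraries, with a log2 difference of 3.72 (SE 0.28, adjusted p 5.95e-08). Wild-type Arntl averaged 12.6 ± 3.80 CPM (SD, n = 6) at ZT22 and 0.852 ± 0.473 at ZT10, and Bmal1-/- averaged 11.6 ± 3.87 at ZT22 and 12.2 ± 2.38 at ZT10. Arntl had 42 gene counts in all at ZT10 in wild type and 573 in Bmal1-/-, and its tags were placed at sites on the plus strand of chromosome 7 (mm10). The site at chr7:113243577-113243616 held 10 tags in wild type and 120 in Bmal1-/-, and the site at chr7:113243662-113243709 held 13 and 186. The site nearest the annotated 3′ end, chr7:113314007-113314034, held 6 and 33 tags. A 3′ tag outside the altered part shows nothing about the alteration, so these counts do not check the genotype labels.

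The 12 libraries held 6266798 to 9860369 gene counts each, with medians of 8079567.5 in wild type and 7565077 in Bmal1-/-. No 2 libraries of a group were copies: 0 of 30 pairs held equal values, and in the closest pair the chi-square per degree of freedom came to 4.465. The first principal component separated the genotypes and carried 42% of the variance. Within Bmal1-/- the libraries lay nearest to each other as replicates 1 and 2, 3 and 4, and 5 and 6, and within wild type nearest neighbours fell within replicates 1 to 3 and within 4 to 6. The labels give no batch that goes with these numbers.

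Over all genes whose mean count reached 10, 2295 of 12065 passed an adjusted p of 0.05 (19.0%). Of these, 1140 were higher in Bmal1-/- (9.45% of genes tested) and 1155 were lower (9.57%), and the median log2 difference of all tested genes was 0.0016. The 6 and 6 values did not overlap in 1130 genes (9.37%), of which 711 were higher (5.89%) and 419 lower (3.47%) in Bmal1-/-. These shares are the background against which the gene groups below are read.

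The activators of the clock were higher in Bmal1-/- liver. Of the 5 genes listed as activators, all tested, 4 rose and 0 fell. Npas2, the partner of BMAL1 that can stand in for CLOCK, was almost absent in wild type, with 3 counts in all 6 libraries together and 0 to 0.251 CPM, against 6.59 to 9.41 CPM in Bmal1-/- (median 7.70). The ratio of the summed counts per depth was 125, with a 95% interval of 42.4 to 609 that covers counting error only (adjusted p 7.02e-09). Clock, the main partner, stood at 15.8 to 26.5 CPM (median 22.04) in wild type and 42.5 to 68.4 (median 52.6) in Bmal1-/-. The groups did not overlap and the difference was 1.23 on the log2 scale (SE 0.14, adjusted p 5.28e-06). Rora, which encodes a receptor that activates through ROREs, overlapped between the genotypes at 89.5 to 134 and 99.7 to 192 CPM (log2 0.21, SE 0.15, adjusted p 0.338).

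The repressors split. Of 11 listed, 6 fell, 2 rose and 3 did not pass. The 6 and 6 values of 7 did not overlap, against 9.37% of all tested genes. Nr1d2, a REV-ERB receptor, had the smallest adjusted p of all genes tested: it stood at 88.8 to 122 CPM in wild type (median 107) and 3.51 to 7.21 in Bmal1-/- (median 4.47), a log2 difference of -4.56 (SE 0.16, adjusted p 4.62e-12). Nr1d1, the other REV-ERB gene, ran from 9.79 to 50.01 CPM with a median of 17.7 in wild type and from 0.232 to 2.45 with a median of 0.652 in Bmal1-/-. Its wild-type values were thus spread over a wide range, yet even the lowest lay above the highest Bmal1-/- value (log2 -4.92, SE 0.66, adjusted p 0.00033). Ciart, a repressor also known as CHRONO, had 10.5 to 19.3 CPM in wild type and 0 to 0.581 in Bmal1-/-, where 4 libraries had no count (8 counts in all, log2 -6.38, SE 0.46, adjusted p 1.01e-07). Bhlhe41, the repressor DEC2 that binds E-boxes, had 2.32 to 14.4 CPM in wild type and only 3 counts in the 6 Bmal1-/- libraries together. Its ratio of summed counts per depth was 109 in favour of wild type, with a 95% counting interval of 37.1 to 532 (adjusted p 9.70e-06).

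Of the 3 period genes 2 fell and 1 did not pass. Per3 fell without overlap, from 21.7 to 37.6 CPM in wild type (median 27.5) to 2.52 to 4.97 in Bmal1-/- (median 3.58; log2 -2.97, SE 0.17, adjusted p 2.17e-09). Per1 fell by less, with 11.1 to 18.8 CPM in wild type against 4.46 to 13.2 in Bmal1-/-, and the ranges overlapped (log2 -1.03, SE 0.26, adjusted p 0.0109). Per2 gave 21.0 to 50.9 CPM (median 42.4) and 27.6 to 35.3 (median 31.1), a difference that did not pass (log2 -0.36, SE 0.16, adjusted p 0.129). Its Bmal1-/- values all lay inside the wild-type range.

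Among the repressors Cry1 and Nfil3 were higher in Bmal1-/-. Cry1, a cryptochrome, rose from 4.98 to 10.3 CPM in wild type (median 7.73) to 46.2 to 61.9 in Bmal1-/- (median 53.6), so that the lowest Bmal1-/- library was well above the highest wild-type library (log2 2.73, SE 0.15, adjusted p 8.98e-10). Nfil3, which represses at D-boxes, rose from 4.25 to 6.95 CPM to 16.2 to 30.2 (log2 1.89, SE 0.17, adjusted p 3.32e-07). Cry2 and Bhlhe40 overlapped and did not pass, at log2 0.09 (SE 0.15, adjusted p 0.707) and -0.30 (SE 0.14, adjusted p 0.143). Of the 9 tested kinases, ubiquitin ligase parts and cofactors that act on clock proteins, Sfpq alone passed, at 58.4 to 92.9 CPM in wild type and 98.4 to 115 in Bmal1-/- (log2 0.46, SE 0.12, adjusted p 0.0145), and the log2 differences of the other 8 ran from -0.12 to 0.40.

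The PAR bZIP genes all fell. Dbp stood at 64.9 to 137 CPM in wild type (median 92.5) and 1.42 to 4.77 in Bmal1-/- (median 3.44), a 31.1-fold difference (log2 -4.96, SE 0.27, adjusted p 1.91e-08). Tef fell from 188 to 280 CPM to 69.9 to 111 without overlap (log2 -1.50, SE 0.13, adjusted p 3.22e-07). Hlf differed by less, at 59.9 to 89.0 and 41.1 to 70.1 CPM with overlapping ranges (log2 -0.45, SE 0.14, adjusted p 0.0258), and its call was lost when any 1 of 4 libraries was left out.

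**Figure D1:**
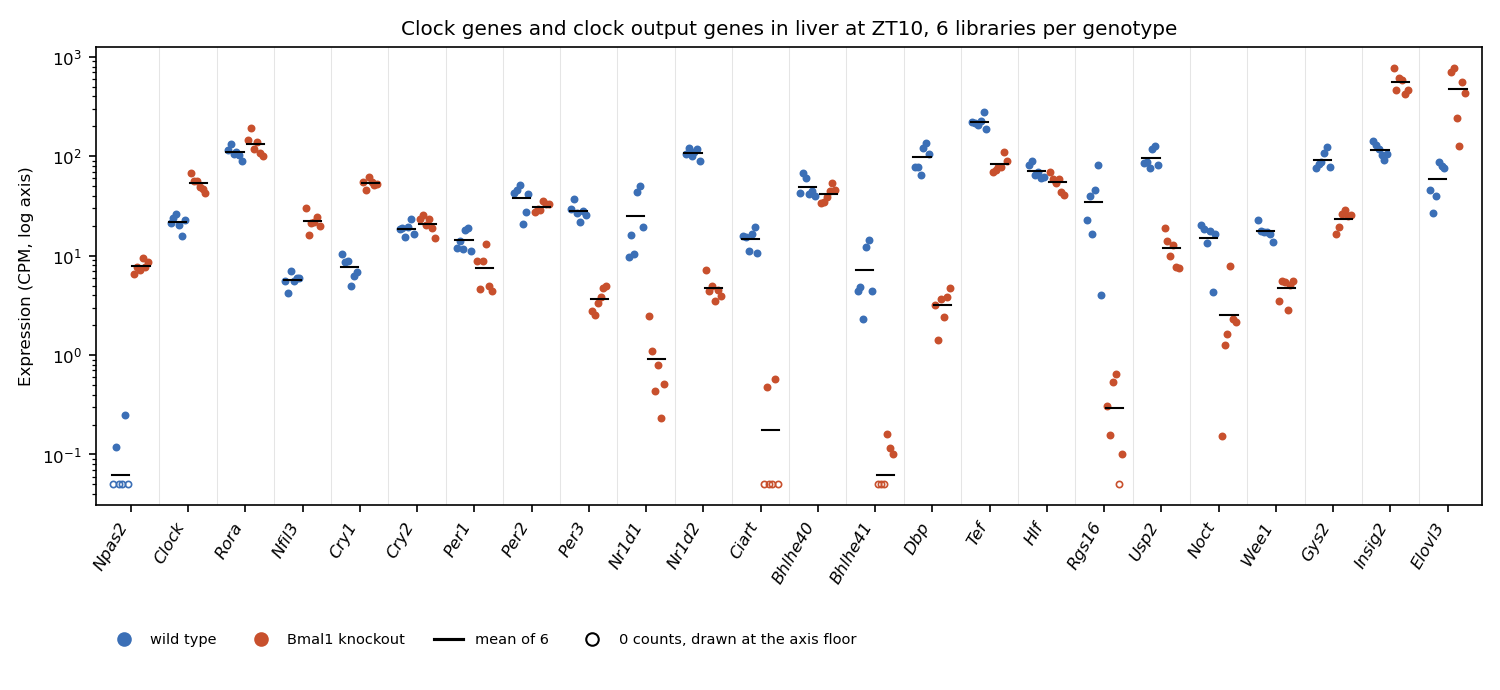
Expression of clock genes and clock output genes in each of the 12 libraries at ZT10, in CPM on a log axis, with wild type in blue, Bmal1-/- in red and the mean of 6 libraries as a line. Nr1d1, Nr1d2, Ciart, Bhlhe41, Dbp and Rgs16 are lower and Npas2, Cry1, Clock and Nfil3 higher in Bmal1-/- without overlap, and Per2, Cry2, Rora and Bhlhe40 overlap.

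The start regions of these genes are shown for the motifs through which the factors above are known to act. RefSeq promoter sequences (GRCm38.p6, 250 bases before to 50 bases after the annotated start) were found for 23 of the 30 genes listed as activators, repressors, PAR bZIP factors and output genes. They were searched on both strands for the E-box CACGTG (which reads the same on both strands), for the D-box as TTATGTAA or TTATGCAA, and for the RORE. None of these motifs contains another. Capitals mark the motif, the rest is lower case, and each line reads 5′ to 3′ along the gene.
Per1 E-box, chr11:69098756-69098815, plus strand: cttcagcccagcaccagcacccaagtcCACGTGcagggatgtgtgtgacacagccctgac
Per1 D-box, chr11:69098899-69098958, plus strand: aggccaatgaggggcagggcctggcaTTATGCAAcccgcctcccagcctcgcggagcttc
Per3 D-box, chr4:151044837-151044896, minus strand: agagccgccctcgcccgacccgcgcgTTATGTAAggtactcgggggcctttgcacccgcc
Cry1 E-box, chr10:85185082-85185141, minus strand: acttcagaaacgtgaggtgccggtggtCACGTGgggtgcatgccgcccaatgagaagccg
Bhlhe41 E-box, chr6:145865541-145865600, minus strand: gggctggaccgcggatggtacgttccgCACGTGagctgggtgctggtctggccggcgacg
Ciart E-box, chr3:95882312-95882371, minus strand: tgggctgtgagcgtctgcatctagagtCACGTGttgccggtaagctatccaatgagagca
Tef E-box, chr15:81802519-81802578, plus strand: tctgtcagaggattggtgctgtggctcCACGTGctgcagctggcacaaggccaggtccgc
Arntl RORE, chr7:113207513-113207560, plus strand: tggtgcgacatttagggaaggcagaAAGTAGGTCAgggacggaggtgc

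Of the genes with these windows, Per1, Bhlhe41, Ciart and Tef fell and Cry1 rose in Bmal1-/-, so an E-box in the window went with both directions. The E-box begins 116 bases before the start in Ciart, where the window holds 3 of them, 153 before it in Bhlhe41, 166 before it in Per1 and 60 before it in Cry1. Per3 holds 2 D-boxes, of which the one shown begins 205 bases before the start, and the RORE of Arntl begins 27 bases after the start. The E-box was in 9.95% of the promoters of tested genes (7.15% of all 32851 promoters in the table), in 9.99% of those of genes lower in Bmal1-/- and in 10.7% of those of genes higher. The D-box was in 1.19% of promoters of tested genes (1.66% of all), in 2.88% for genes lower and in 1.47% for genes higher. The RORE was in 0.585% of promoters of tested genes (0.773% of all), in 0.508% for genes lower and in 1.37% for genes higher. For genes changed at least 2-fold, with 394 promoters of genes lower and 297 of genes higher, the E-box was in 10.2% and 5.05%, the D-box in 4.06% and 2.36%, and the RORE in 0.254% and 3.03%. These are descriptions of letters in short windows, with no test, and a motif outside a window is not counted.

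Of 10 tested output genes of the liver clock, 8 fell and 2 rose, with a median log2 difference of -1.70. Rgs16, a regulator of G protein signalling, ran from 4.01 to 80.9 CPM with a median of 31.4 in wild type and from 0 to 0.638 in Bmal1-/- (log2 -6.97, SE 0.90, adjusted p 0.000316). The lowest wild-type library still lay above the highest Bmal1-/- library. Usp2, a ubiquitin protease, fell from 76.6 to 127 CPM to 7.50 to 18.9 (log2 -3.11, SE 0.24, adjusted p 4.09e-07). Wee1, the kinase that holds back mitosis, fell from 13.8 to 22.6 CPM to 2.87 to 5.58 (log2 -1.96, SE 0.18, adjusted p 5.91e-07). Noct, the deadenylase-like Nocturnin, had 4.27 to 20.2 CPM in wild type and 0.153 to 7.82 in Bmal1-/- (log2 -2.66, SE 0.55, adjusted p 0.00507). Its ranges overlapped because replicate 4 of Bmal1-/- (7.82) lay above replicate 5 of wild type (4.27). Nampt, the rate-limiting enzyme of NAD salvage, fell from 44.4 to 97.7 CPM to 22.4 to 37.1 (log2 -1.35, SE 0.20, adjusted p 0.000263). Lpin1, a phosphatidate phosphatase, and Tsku, a secreted proteoglycan, fell by 1.45 (SE 0.30, adjusted p 0.00436) and 1.38 (SE 0.35, adjusted p 0.0155) on the log2 scale, and Gys2 is given with the glucose genes below. The 2 that rose belong to lipid metabolism: Insig2, which retains SREBP in the endoplasmic reticulum, went from 92.3 to 142 CPM to 424 to 766 (log2 2.20, SE 0.15, adjusted p 2.47e-08), and Elovl3, a fatty acid elongase, from 27.1 to 87.7 CPM to 126 to 776 (log2 2.90, SE 0.49, adjusted p 0.002).

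The largest changes outside the clock are given by rule: the 12 largest rises and the 12 largest falls among genes that passed and did not overlap. The mean had to reach 5 CPM only in the genotype where the gene was higher. Genes near 0 in the other genotype thus passed this level only through the genotype where they were high. Tox2, a nuclear protein of the HMG-box family, stood at 0.830 to 2.07 CPM in wild type and 48.7 to 82.5 in Bmal1-/- (log2 5.69, SE 0.21, adjusted p 8.11e-12). Loxl4, a lysyl oxidase-like enzyme, went from 0.126 to 0.445 CPM to 15.6 to 36.4 (log2 6.51, SE 0.33, adjusted p 3.69e-10). Slc34a2, a sodium-phosphate cotransporter, had 4 counts in all wild-type libraries and 7.98 to 17.7 CPM in Bmal1-/- (log2 7.06, SE 0.43, adjusted p 3.94e-09). Groups without overlap were a condition for naming these genes, so the separation of the genotypes follows in part from the choice. Loxl4 and Slc34a2, with 12 and 4 wild-type counts in all, also reached the count filter only through the Bmal1-/- libraries.

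Cdkn1a, which encodes the cell cycle inhibitor p21, rose from 1.01 to 8.60 CPM (median 4.28) in wild type to 102 to 312 (median 249) in Bmal1-/- (log2 5.56, SE 0.58, adjusted p 6.93e-05). Ntrk2, the BDNF receptor TrkB, rose from 0 to 3.29 CPM to 11.2 to 79.7 (log2 5.19, SE 0.72, adjusted p 0.00056), and Grk5, a G protein-coupled receptor kinase, from 0.591 to 1.51 CPM to 12.3 to 34.1 (log2 4.39, SE 0.29, adjusted p 1.46e-08). Npnt, an extracellular matrix protein, and Gdpd3, a lysophospholipase D, had log2 differences of 4.96 (SE 0.55) and 4.95 (SE 0.46). The other rises were Npas2 and the unnamed loci Gm43158, 3930402G23Rik and AC131596.1. Gm43158 had 1 count in wild type and 261 in Bmal1-/-, a ratio of 266 with a 95% counting interval of 47.3 to 10546, and 3930402G23Rik and AC131596.1 differed by log2 6.07 (SE 0.82) and 5.92 (SE 0.85). What such loci count is uncertain where they overlap other genes.

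Of the 12 largest falls, 6 were clock genes or clock outputs described above: Rgs16, Bhlhe41, Ciart, Dbp, Nr1d1 and Nr1d2. Nat8, an acetyltransferase of the endoplasmic reticulum, fell from 33.2 to 52.1 CPM (median 42.1) in wild type to 0.323 to 1.76 (median 1.47) in Bmal1-/-, a 37.1-fold difference (log2 -5.21, SE 0.25, adjusted p 3.00e-10). Clec2h, a C-type lectin, ran from 5.85 to 56.7 CPM in wild type and from 0.101 to 1.28 in Bmal1-/- (log2 -5.41, SE 0.82, adjusted p 0.000918). Smim22, a small membrane protein, fell from 8.71 to 22.3 CPM to 0 to 1.28 (log2 -4.79, SE 0.34, adjusted p 3.99e-08). Gm13775 (log2 -4.55, SE 0.63), AC151971.2 (log2 -5.33, SE 0.57) and Mup-ps8 (log2 -4.65, SE 1.03) complete the falls. Mup-ps8 belongs to a family of near-identical major urinary protein copies, so its counts are uncertain.

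Genes of fatty acid synthesis were lower where they changed. Of 17 lipogenesis genes tested 8 fell and 0 rose, with a median log2 difference of -0.79 against 0.0016 over all genes. Fads1, a desaturase of polyunsaturated fatty acids, fell from 221 to 408 CPM to 150 to 210 (log2 -0.79, SE 0.14, adjusted p 0.000486). Acacb, the mitochondrial acetyl-CoA carboxylase, fell from 15.3 to 47.7 CPM to 3.34 to 10.6 (log2 -1.94, SE 0.33, adjusted p 0.00106), and Fads2, the next desaturase in the family, from 9.21 to 17.8 CPM to 4.26 to 8.71 (log2 -1.05, SE 0.20, adjusted p 0.0012). None of these 3 genes overlapped between genotypes. Scd1, which makes oleate and palmitoleate, varied widely between libraries and ran from 990 to 7439 CPM in wild type and from 82.6 to 1124 in Bmal1-/- (log2 -2.87, SE 0.61, adjusted p 0.00752). The count of lipogenesis genes that fell was 3 without wild-type replicates 1 to 3, where 2 rose, and 13 without wild-type replicates 4 to 6. It was 4 without Bmal1-/- replicates 3 and 4.

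Targets of PPARα, the receptor that drives fatty acid oxidation, were also lower where they changed: 9 of 24 fell, 0 rose, and the median log2 difference was -0.58. Acaa1b, a peroxisomal thiolase, stood at 734 to 1968 CPM in wild type and 187 to 296 in Bmal1-/- (log2 -2.46, SE 0.22, adjusted p 1.62e-06). Fabp1, the liver fatty acid carrier, fell from 4513 to 6634 CPM to 1040 to 3467 (log2 -1.47, SE 0.25, adjusted p 0.000894). Ppara itself fell from 180 to 418 CPM to 98.8 to 264 with overlap (log2 -1.06, SE 0.25, adjusted p 0.00898). The count was 15 without Bmal1-/- replicates 1 and 2, and 5 without Bmal1-/- replicates 3 and 4 and without wild-type replicates 1 to 3. Without Bmal1-/- replicates 5 and 6 it was 6, and without Bmal1-/- replicate 1 alone it was 16.

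Counts for cholesterol synthesis and bile acid metabolism were small, where 19.0% of all tested genes were called and 9.45% were higher in Bmal1-/-. These counts are not read as a result about either group. Of 24 genes of cholesterol synthesis 2 passed, both higher, and the median log2 difference was 0.39. The 22 that did not pass ran from log2 -0.40 to 1.45, the highest being Mvd, a decarboxylase of the mevalonate pathway (SE 0.48, adjusted p 0.0597). The 2 that passed were Sqle, squalene epoxidase, at 13.6 to 39.5 CPM in wild type and 26.2 to 95.5 in Bmal1-/- (log2 1.25, SE 0.38, adjusted p 0.0413), and Srebf2, their transcription factor, at 8.01 to 11.8 and 8.74 to 23.1 CPM (log2 0.66, SE 0.20, adjusted p 0.0269). The values of both overlapped between genotypes. The count was 7 without Bmal1-/- replicates 3 and 4, 4 without replicates 1 and 2 and 0 without replicates 5 and 6. Of single libraries, it was 5, 4 and 3 without Bmal1-/- replicate 1, 3 or 4, 0 without Bmal1-/- replicate 5 or 6 or wild-type replicate 1 or 2, and 1 without any other single library. Of 15 bile acid genes 2 rose, Slco1a4, an organic anion transporter, from 31.9 to 60.1 CPM to 70.9 to 166 (log2 1.35, SE 0.23, adjusted p 0.00101), and Abcb11, the bile salt export pump, from 140 to 193 CPM to 165 to 268 (log2 0.43, SE 0.13, adjusted p 0.0331). The call for Abcb11 was lost without any 1 of 8 libraries.

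Glycogen and glucose genes went both ways. Of 19 tested 7 fell and 3 rose. Gys2, the liver glycogen synthase, fell from 75.8 to 124 CPM in wild type to 16.7 to 28.7 in Bmal1-/- (log2 -2.05, SE 0.16, adjusted p 1.01e-07), while Ppp1r3c, a subunit that directs phosphatase to glycogen, rose from 20.6 to 36.4 CPM to 104 to 188 (log2 2.35, SE 0.19, adjusted p 2.38e-07). Neither gene overlapped between genotypes. Pfkfb3, which makes the activator of glycolysis fructose 2,6-bisphosphate, fell from 17.0 to 23.4 CPM to 4.84 to 9.99 (log2 -1.49, SE 0.18, adjusted p 1.20e-05), and Pcx, pyruvate carboxylase, from 57.3 to 83.4 CPM to 38.8 to 55.2 (log2 -0.59, SE 0.12, adjusted p 0.00251). Gckr, the inhibitor of glucokinase, rose from 68.3 to 107 CPM to 104 to 157 (log2 0.58, SE 0.12, adjusted p 0.00208). The number that fell was 3 without wild-type replicates 1 to 3.

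Heme synthesis genes and xenobiotic receptors were lower where they changed, with 7 of 15 down and 0 up. Por, the electron donor of the microsomal cytochromes P450, fell from 203 to 388 CPM to 71.2 to 168 (log2 -1.45, SE 0.25, adjusted p 0.00102). Rxra, the common partner of the xenobiotic receptors, fell from 122 to 157 CPM to 97.4 to 118 (log2 -0.44, SE 0.11, adjusted p 0.00863). Alas1, the rate-limiting enzyme of heme synthesis, gave 179 to 641 CPM in wild type and 129 to 280 in Bmal1-/- (log2 -1.06, SE 0.32, adjusted p 0.0386). Wild-type replicates 1 to 3 stood at 530 to 641 CPM and replicates 4 to 6 at 179 to 291, which overlaps Bmal1-/-. The call for Alas1 was lost without any 1 of 7 libraries, and in 15 of 26 alternative settings. The count for the group was 3 without wild-type replicates 1 to 3 and 4 without Bmal1-/- replicates 5 and 6. It was also 4 without Bmal1-/- replicate 2 or 3 or wild-type replicate 1 or 3.

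The cytochromes P450 themselves moved in both directions, and 15 of 32 did not overlap between genotypes, against 9.37% of all tested genes. Of the 32 tested, 11 rose and 5 fell. Members of the Cyp2c family made up much of the rise: Cyp2c29 went from 1209 to 1597 CPM in wild type to 3232 to 5223 in Bmal1-/- (log2 1.57, SE 0.13, adjusted p 1.22e-07), Cyp2c37 from 58.5 to 103 CPM to 262 to 379 (log2 1.95, SE 0.15, adjusted p 1.16e-07) and Cyp2c54 from 119 to 193 CPM to 322 to 560 (log2 1.42, SE 0.15, adjusted p 3.65e-06). Cyp2a4 fell from 2.67 to 12.6 CPM to 1.07 to 2.84 (log2 -2.43, SE 0.32, adjusted p 3.97e-05), and Cyp2d40 from 44.0 to 67.5 CPM to 16.7 to 25.4 (log2 -1.55, SE 0.14, adjusted p 3.69e-07). These families hold close copies that share reads, so the values of single members are uncertain. The count that rose stayed at 10 or 11 whichever single library, pair of Bmal1-/- libraries or set of 3 wild-type libraries was left out.

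Of 12 male-biased genes 1 passed, Elovl3, which rose as given above, and of 6 tested female-biased genes, out of 18 listed, 2 rose and 3 fell. Prlr, the prolactin receptor, rose from 42.9 to 90.4 CPM to 183 to 315 (log2 1.68, SE 0.16, adjusted p 8.61e-07), and Atp6v0d2, a proton pump subunit, from 0.891 to 5.11 CPM to 6.75 to 29.8 (log2 2.47, SE 0.43, adjusted p 0.00158). Acot3, an acyl-CoA thioesterase, fell from 4.30 to 61.1 CPM to 0.631 to 4.09 (log2 -3.82, SE 0.74, adjusted p 0.00454), and Cyp17a1, a steroid hydroxylase, from 2.49 to 9.51 CPM to 0.101 to 1.91 (log2 -2.67, SE 0.52, adjusted p 0.00222). Of 14 genes of growth hormone, IGF and insulin signalling 3 rose. Stat5b, the main transducer of growth hormone, rose from 18.9 to 26.8 CPM to 31.6 to 37.5 (log2 0.49, SE 0.11, adjusted p 0.00474), and Irs1 and Socs2 gave log2 0.74 (SE 0.22, adjusted p 0.026) and 1.43 (SE 0.43, adjusted p 0.04). The calls for Irs1 and Socs2 were lost without any 1 of 4 and 8 libraries, and no gene of the list rose without wild-type replicates 1 to 3.

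Acute phase genes went in both directions, and of 21 tested 7 rose and 5 fell. Itih3, an inter-alpha-trypsin inhibitor, rose from 170 to 327 CPM to 663 to 786 (log2 1.56, SE 0.15, adjusted p 6.66e-07), and Cp, the copper protein ceruloplasmin, from 831 to 1377 CPM to 1950 to 2494 (log2 1.08, SE 0.12, adjusted p 7.87e-06). The 4 serum amyloid A genes fell, and the fifth that fell was Orm1, an orosomucoid (log2 -0.46, SE 0.15, adjusted p 0.042), while Orm2 and Orm3 gave log2 0.44 and 0.37 and did not pass. Saa1 fell from 53.8 to 182 CPM to 5.11 to 21.9 (log2 -3.10, SE 0.39, adjusted p 0.000216), Saa4 from 170 to 290 CPM to 68.1 to 121 (log2 -1.33, SE 0.16, adjusted p 1.85e-05) and Saa3 from 9.96 to 25.5 CPM to 3.25 to 9.35 (log2 -1.82, SE 0.29, adjusted p 0.000368). Saa1 is nearly identical to Saa2, so reads between those 2 could be split.

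Antigen presentation and interferon genes were lower where they changed, with 10 of 22 down, 0 up and a median log2 difference of -0.53. Values did not overlap between genotypes in 1 of the 22, where this held for 9.37% of all tested genes (3.47% lower). H2-K1, a class I histocompatibility antigen, fell from 675 to 1046 CPM to 526 to 589 (log2 -0.66, SE 0.11, adjusted p 0.000278). Psmb8, an immunoproteasome subunit, gave 20.9 to 34.4 and 13.99 to 21.5 CPM (log2 -0.80, SE 0.16, adjusted p 0.00148). The count was 4 without Bmal1-/- replicates 3 and 4, 4 without wild-type replicates 1 to 3 and 6 without Bmal1-/- replicates 5 and 6. In bulk tissue fewer cells of a type and less RNA per cell cannot be told apart. Kupffer cell markers moved with these genes: 5 of 10 fell and 0 rose, with a summed level of 244 to 1169 CPM in wild type and 218 to 331 in Bmal1-/-, and none of the 10 was at 0 in all libraries. Their part in the result was not tested.

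Among the smaller groups, 3 of 16 heat shock genes rose and 1 fell. Hspa1b, an inducible HSP70, rose from 1.85 to 4.01 CPM to 4.15 to 14.7 (log2 1.83, SE 0.28, adjusted p 0.000142), and Hspa5, the chaperone BiP of the endoplasmic reticulum, from 564 to 911 CPM to 1063 to 1985 (log2 0.78, SE 0.16, adjusted p 0.00254). Of 14 NRF2 and glutathione genes 3 rose, all of the Gstm family, and 2 fell, both Gsta genes. Gstm2 rose from 52.0 to 80.2 CPM to 166 to 330 (log2 2.07, SE 0.16, adjusted p 1.01e-07) and Gsta2 fell from 7.87 to 21.99 CPM to 0.473 to 5.59 (log2 -2.62, SE 0.43, adjusted p 0.001). Both families hold close copies. Of 10 glucocorticoid targets 2 rose, among them Tsc22d3 (GILZ), from 32.5 to 66.9 CPM to 95.5 to 154 (log2 1.10, SE 0.16, adjusted p 7.86e-05).

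In the remaining lists the counts were small. Of 16 genes of the urea cycle and amino acid breakdown 2 rose and 2 fell, of 9 iron genes 1 rose and 2 fell, and of 2 cold-inducible genes 1 rose. The iron gene that rose, Hfe2 (hemojuvelin), and the cold-inducible gene that rose, Rbm3, lost their calls without any 1 of 6 and 5 libraries. Ftl1, the ferritin light chain, fell from 778 to 1146 CPM to 563 to 714 (log2 -0.55, SE 0.12, adjusted p 0.00354), and Hamp, the iron hormone hepcidin, gave 313 to 609 and 245 to 346 CPM (log2 -0.67, SE 0.18, adjusted p 0.0128). Of 7 cell cycle genes 1 rose, Cdkn1a, and 2 fell, Wee1 and Ccnd1. Ccnd1, cyclin D1, gave 22.2 to 79.7 CPM in wild type and 7.21 to 25.1 in Bmal1-/- (log2 -1.07, SE 0.33, adjusted p 0.0372), a call lost without any 1 of 6 libraries. Of 22 genes of the polyadenylation machinery 1 rose and 1 fell, Cpsf2 at log2 0.39 (SE 0.14, adjusted p 0.0495) and Pcf11 at -0.44 (SE 0.14, adjusted p 0.0319), and these calls were lost without any 1 of 9 and 7 libraries.

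**Figure D2:**
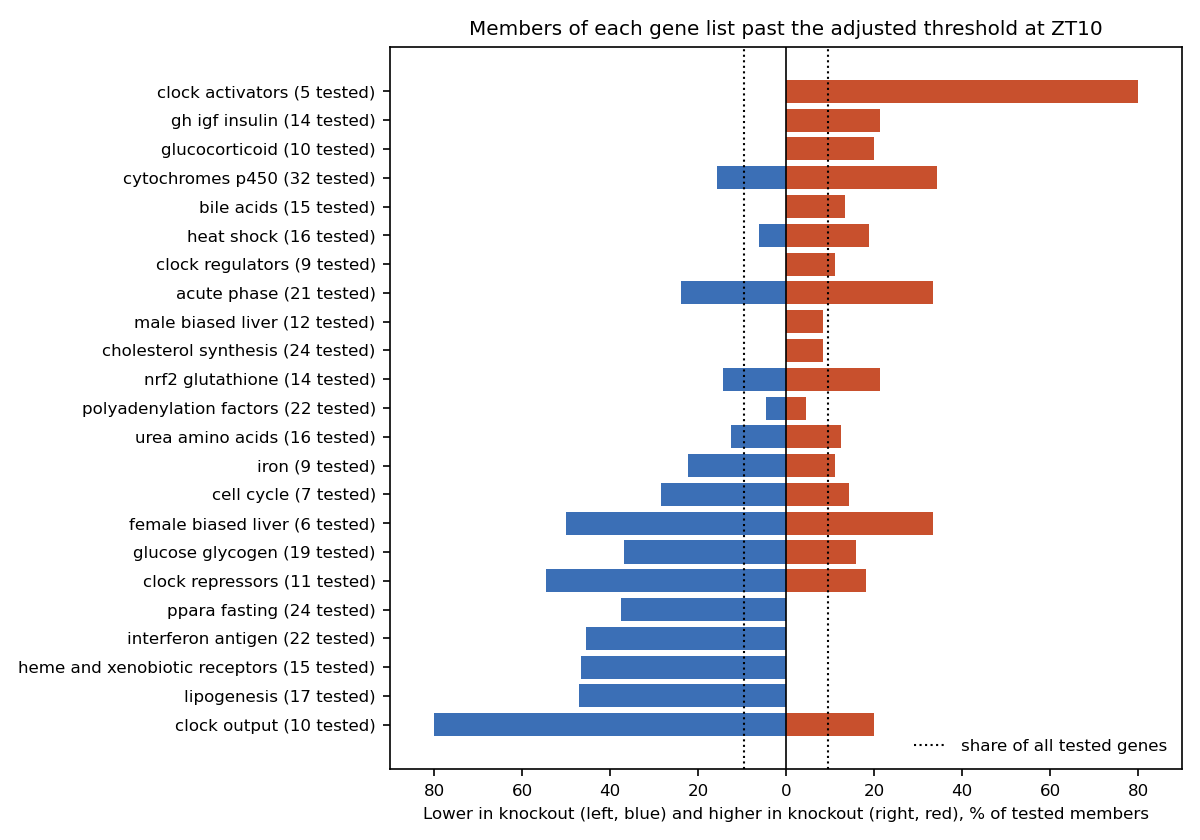
Share of the tested members of each gene list that passed the threshold, with members lower in Bmal1-/- drawn to the left in blue, members higher drawn to the right in red, and dotted lines at the shares of all tested genes, 9.57% lower and 9.45% higher. Lists with at least 5 tested members are shown; clock output (8 of 10) has the widest bar to the left and clock activators (4 of 5) the widest to the right.

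The sample was liver by its markers. The 8 hepatocyte markers summed to 69170 to 102700 CPM in wild type and 51500 to 88940 in Bmal1-/-, where replicates 1 and 2 were the lowest, and 1 of 8 passed. Of the 5 cholangiocyte markers 2 were tested and both rose: Sox9, a transcription factor of bile duct and periportal cells, from 9.36 to 14.1 CPM to 40.1 to 78.9 (log2 2.21, SE 0.17, adjusted p 9.08e-08), and Spp1, osteopontin, from 5.28 to 8.16 CPM to 7.34 to 18.6 (log2 0.90, SE 0.21, adjusted p 0.00584). The other 3, Krt19, Krt7 and Epcam, were too low to test. Of 7 tested stellate cell markers 2 rose, Dcn, the matrix proteoglycan decorin, from 152 to 229 CPM to 254 to 319 (log2 0.49, SE 0.10, adjusted p 0.00263) and Reln, reelin, from 23.0 to 29.7 CPM to 26.7 to 44.3 (log2 0.50, SE 0.11, adjusted p 0.00501). The other 5 did not pass and ran from log2 -0.56 (Col3a1, a fibrillar collagen) to 0.09 (Lrat, which stores retinol), and the median of the 7 was 0.05. The whole list summed to 264 to 364 and 376 to 464 CPM, and Dcn made up most of that sum. None of 8 sinusoidal endothelial markers passed (228 to 289 and 236 to 279 CPM).

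Blood and fat markers differed between libraries within wild type. Of 5 erythroid markers 2 fell, on sums of 1619 to 5814 and 884 to 3528 CPM, and 1 of 3 tested adipocyte markers fell, Cfd, which was at 18.7 to 33.3 CPM in wild-type replicates 1 to 3 and at 0 to 0.138 in wild-type replicates 4 to 6 (adjusted p 0.0477). No lymphocyte marker of 3 tested and no neutrophil marker of 2 tested passed, and none of the 9 pancreatic acinar markers was high enough to test, with 7 of them at 0 in all 12 libraries. Kupffer cell markers were highest in wild-type replicate 2 (1169 CPM, against 244 to 534 in the other 5), and without that library 4 of the 10 passed. The count was 10 without wild-type replicate 4, 3 without wild-type replicate 3 or 5, and 2 without any 1 of Bmal1-/- replicates 3 to 6. Whether these cell types bear on the gene groups above was not tested.

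**Figure D3:**
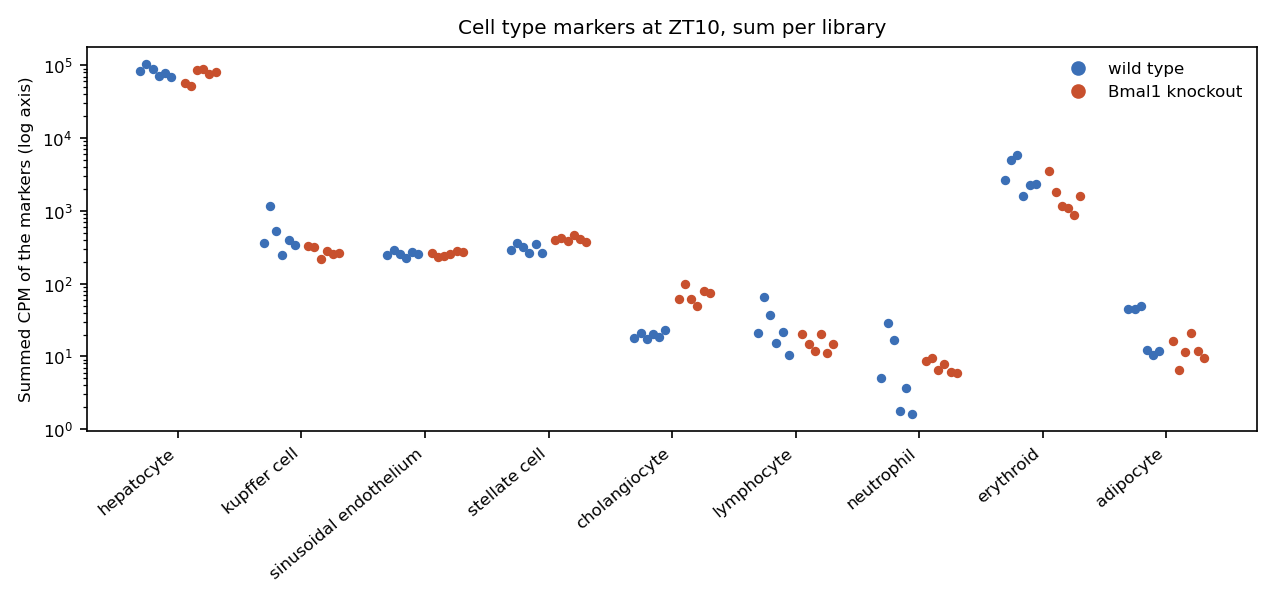
Summed CPM of the markers of each cell type in each of the 12 libraries at ZT10 on a log axis, with wild type in blue and Bmal1-/- in red. The cholangiocyte and stellate cell sums of the 2 genotypes do not overlap. Sox9 makes up most of the cholangiocyte sum, Spp1 overlaps, and Krt19, Krt7 and Epcam were too low to test. Dcn makes up most of the stellate sum, and only Dcn and Reln of the 7 tested stellate markers passed. Wild-type replicate 2 is the highest library for Kupffer cell markers.

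Whether a difference belonged to ZT10 was asked by testing it against the mean difference at the other 5 times, in a fit of all 72 total RNA libraries. Of 12082 genes 157 passed (1.30%), 92 with a more positive difference at ZT10 (0.761%) and 65 with a more negative one (0.538%). In 150 of the 157 the ZT10 difference was the larger in size, and in 33 the mean of the other times had the opposite sign. Of the 2276 genes called at ZT10 that were in both fits, 1544 (67.8%) had the same sign at all 5 other times, 583 at 3 or 4 of them and 149 at 0 to 2.

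Of 38 tested genes on the clock lists 15 passed this test, 6 with a more positive and 9 with a more negative difference at ZT10. Dbp had the smallest adjusted p, with a log2 difference of -4.97 at ZT10 and a mean of -1.12 at the other times (difference -3.86, SE 0.40, adjusted p 8.21e-10). Wild-type Dbp averaged 97.6 ± 28.1 CPM (SD, n = 6) at ZT10, 1.05 ± 0.860 at ZT2 and 1.27 ± 0.505 at ZT22, and Bmal1-/- Dbp averaged 2.42 to 3.22 CPM at all 6 times. The level thus varied over the day in wild type and little in Bmal1-/-, and the difference at ZT2 had the opposite sign (log2 1.31). Nfil3, Clock and Arntl had ZT10 differences above their other times by 1.74 (SE 0.20, adjusted p 1.03e-08), 1.09 (SE 0.15, adjusted p 7.03e-07) and 2.98 (SE 0.38, adjusted p 9.82e-08). Tef, Wee1, Per3, Usp2 and Nr1d2 had ZT10 differences below theirs by 1.63 to 2.36 on the log2 scale. For Nr1d1 the contrast did not pass (log2 -1.83, SE 0.59, adjusted p 0.131), and its largest difference was at ZT6 (log2 -5.92).

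Per1 changed sign over the day, at log2 1.64 and 1.99 at ZT2 and ZT6 and -1.03 at ZT10, and its contrast passed (log2 -1.71, SE 0.39, adjusted p 0.00756). Wild-type Per1 averaged 2.01 ± 1.06 CPM at ZT6 and 14.3 ± 3.42 at ZT10 (SD, n = 6), against 8.32 ± 4.76 and 7.47 ± 3.47 in Bmal1-/-. The wild-type mean was higher at ZT10 than at ZT6, and the Bmal1-/- mean was not.

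Outside the clock lists, the 7 genes given here were chosen by their adjusted p in this same test. Their departure at ZT10 was therefore fixed by the choice and is not separate evidence. In 6 of the 7 the wild-type mean was lowest at ZT10, a pattern that the choice favours. Chka, choline kinase, averaged 9.52 ± 3.19 CPM in wild type at ZT10 and 90.01 ± 34.7 at ZT2 (SD, n = 6), against 87.6 to 114 in Bmal1-/- over the 6 times. Its log2 difference was 3.22 at ZT10 and 0.05 at ZT2 (contrast 2.32, SE 0.29, adjusted p 9.82e-08). Slc30a10, a manganese exporter, had a log2 difference of 1.81 at ZT10 and a mean of 0.34 at the other times (contrast 1.47, SE 0.17, adjusted p 8.77e-09).

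Nedd4l, a ubiquitin ligase, Abtb2, Pnkd and Atp2a2, the calcium pump SERCA2, followed the same direction, with contrasts of 1.13 (SE 0.18), 1.66 (SE 0.27), 0.84 (SE 0.12) and 0.91 (SE 0.15). Gpcpd1, a glycerophosphocholine phosphodiesterase, was the exception: it averaged 81.1 ± 19.2 CPM in wild type at ZT10 and 9.59 ± 2.06 at ZT22, against 11.5 to 13.7 in Bmal1-/- over the 6 times (contrast -1.90, SE 0.31, adjusted p 5.61e-05). Gpcpd1 and Chka act on the breakdown and the making of phosphocholine compounds.

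**Figure D4:**
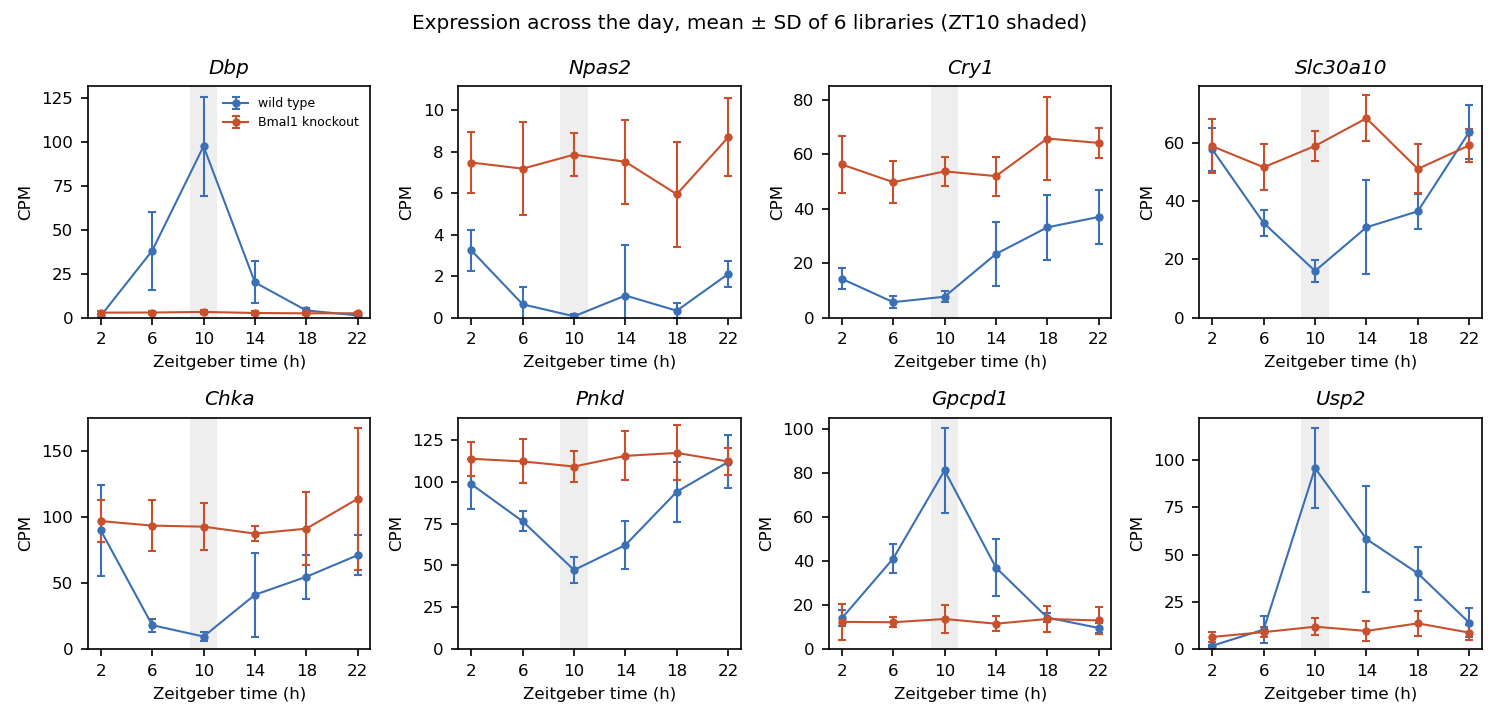
Mean CPM with SD over 6 libraries at each of the 6 zeitgeber times for 8 genes, wild type in blue and Bmal1-/- in red, with ZT10 shaded. Wild-type Dbp, Usp2 and Gpcpd1 peak and wild-type Npas2, Slc30a10, Chka and Pnkd are lowest at ZT10, and Bmal1-/- Dbp stays between 2.42 and 3.22 CPM. Slc30a10, Chka, Pnkd and Gpcpd1 were chosen by their adjusted p in the test of ZT10 against the other times, which favours such patterns.

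The same comparison was made per polyadenylation site, the place where a transcript is cut and tailed. Of 19935 sites of the authors' filtered list whose mean count reached 10, 2470 passed (12.4%), 1322 higher and 1148 lower in Bmal1-/-. The share of a gene's tags at each site was tested too. Of 13522 sites in 4352 genes 45 passed in the test of usage (0.333%), 25 higher and 20 lower in Bmal1-/-, in 34 genes, and 1138 had an unadjusted p under 0.05. This count depended on the libraries: it was 4 with replicates 1 to 3 only and 94 with 4 to 6, 124 without Bmal1-/- replicates 1 and 2, 10 without 3 and 4, 28 without Bmal1-/- replicate 3 alone and 69 without replicate 2 alone. Of those 34 genes 14 (41.2%) were also called for their level, which is 1.52% of the 919 level calls among the 4352, where 21.1% of genes were called. The share at the most 3′ site, averaged over the 4352 genes, was 44.9% ± 1.35 in wild type and 44.5% ± 1.69 in Bmal1-/- (SD, n = 6), a difference of -0.39 points (exact 2-sided permutation test over 924 splits, p = 0.662, where the smallest possible is 0.00216).

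Sites are named here only where the 6 and 6 values did not overlap at ZT10. At 3 of the 8 named sites, all with low wild-type use, the share was far higher in Bmal1-/-. In Fam89a the site chr8:124740540-124740589 (minus strand, the most 5′ of 3) held 0 to 2.44% of the tags in wild type and 40 to 71.2% in Bmal1-/- (adjusted p 4.25e-06). In Me1, malic enzyme, the site chr9:86581766-86581834 (minus strand) held 0.983 to 3.12% in wild type and 19.8 to 36.6% in Bmal1-/- (adjusted p 4.76e-07). In Rnase4, a secreted ribonuclease, the site chr14:51105387-51105654 (plus strand) held 0.452 to 1.79% and 20.3 to 33.7% (adjusted p 4.76e-07), on a mean of 11064 tags for the gene. All 3 sites were close to absent in wild type and present in all 6 Bmal1-/- libraries. Their wild-type shares lay under the minimum share for the usage test, so they entered it only through the Bmal1-/- libraries. Groups without overlap were also a condition for naming them. The separation at these 3 sites therefore follows in part from how they were chosen and is not separate evidence.

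At the other times the 3 sites separated the genotypes less sharply. They were chosen for not overlapping at ZT10, which favours that time, so these values cannot show a trait of ZT10. Over all 36 wild-type total RNA libraries their shares stayed at or below 3.75% (Fam89a), 5.80% (Me1) and 1.80% (Rnase4). Of the 30 Bmal1-/- libraries at the other 5 times, 3, 6 and 10 had a share inside that wild-type range. Of the 30, 1 lay inside it at all 3 sites, 4 at 2 of them, 8 at 1 and 17 at none. At ZT10 all 6 Bmal1-/- libraries lay above it at each of the 3 sites.

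Pnkd, by contrast, differed with the time of day in wild type. Its site chr1:74287198-74287456 (plus strand, the more 5′ of 2) held 34.2 to 42.9% of the tags in wild type at ZT10 and 8.77 to 20.2% in Bmal1-/- (adjusted p 0.00325). In wild type it averaged 14.8% at ZT22 and 38.2% at ZT10, and in Bmal1-/- 14.1 to 17.2% at all 6 times. Its gene level went the opposite way, 38.7 to 61.4 CPM in wild type and 93.7 to 119 in Bmal1-/- at ZT10 (log2 1.13, SE 0.12, adjusted p 2.72e-06).

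The other 4 of the 8 named sites were in Sult5a1, Cyp2d40, Hars and Nudcd3. In Sult5a1, a sulfotransferase, the site chr8:123154586-123154641 (minus strand) fell from 40.5 to 69.6% to 9.52 to 22.7% (adjusted p 0.00325). Like that of Pnkd, its wild-type share differed with the time of day, at 54.25% ± 12.7 at ZT10 and 29.7% ± 10.2 at ZT22 (SD, n = 6). Of the 30 Bmal1-/- libraries at the other times, 16 lay inside the range of all 36 wild-type libraries. In Cyp2d40 the most 3′ site, chr15:82759824-82760037 (minus strand), fell from 68.1 to 87.3% to 37.8 to 52.0% (adjusted p 0.000367). In Hars, histidyl-tRNA synthetase, the most 3′ site, chr18:36766526-36766620 (minus strand), fell from 72.9 to 90.2% to 53.4 to 69.1% (adjusted p 0.0179). In Nudcd3 the site chr11:6172734-6172750 (minus strand) rose from 1.91 to 12.1% to 18.1 to 32.6% (adjusted p 0.00877). Groups without overlap were a condition for naming these sites. The call for Hars was lost without Bmal1-/- replicate 3, 4 or 6 or wild-type replicate 1 or 3.

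**Figure D5:**
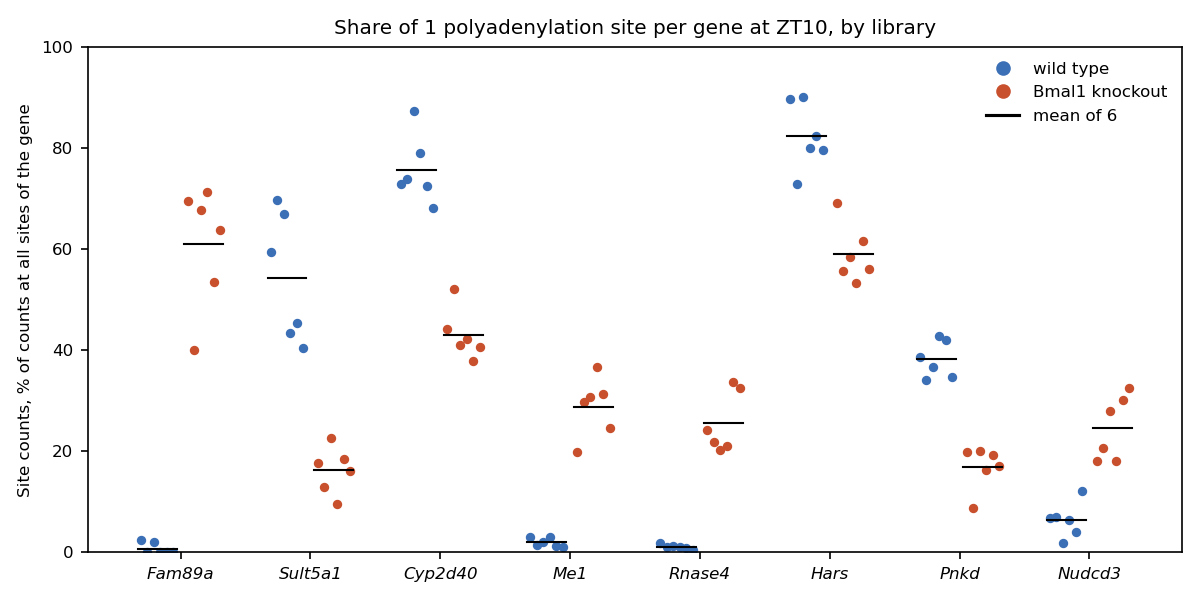
Share of 1 polyadenylation site in the tags of its gene, in percent, in each of the 12 libraries at ZT10, with wild type in blue, Bmal1-/- in red and the mean of 6 as a line. The 8 sites were chosen so that the 2 genotypes do not overlap, and those in Fam89a, Me1 and Rnase4 are near 0 in wild type.

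Genes near Arntl were looked at because DNA next to an altered gene can be inherited with it. Of the tested genes with a RefSeq position 19.2% were called, and the share was 27.3% of 44 genes within 5 Mb of Arntl, 22.7% of 66 at 5 to 10 Mb, 33 of 165 genes at 10 to 20 Mb, 24.4% of 156 at 20 to 40 Mb and 18.5% of 411 farther away on chromosome 7. The autosomes and the X chromosome, each with at least 307 tested genes, ranged from 16.4 to 24.4%. Within 10 Mb the smallest adjusted p after Wee1 belonged to St5, from 4.01 to 7.93 CPM to 17.2 to 24.6 (log2 1.79, SE 0.18, adjusted p 1.46e-06), and Mical2, an actin oxidase, from 4.15 to 10.6 CPM to 18.9 to 25.7 (log2 1.68, SE 0.17, adjusted p 2.46e-06). Crym rose by 3.19 (SE 0.45), Gga2 rose by 0.73 (SE 0.12) and Rps13 fell by 1.03 (SE 0.21) on the log2 scale. Effects of the altered allele and of its neighbouring DNA cannot be told apart in this design.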

How the data were processed

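The authors deposited raw counts per gene symbol and raw counts per polyadenylation site, 1 column per library, and a list of sites kept after a filter. Per the submitters' processing notes, STAR 2.4.2a, HOMER and edgeR were used with builds mm10 and GRCm38.p5, and the role of each is not given in the sources used here. The deposited normalized tables were not used. Groups came from the sample titles, and 0 columns were left without a sample.

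Genes and sites whose mean count reached 10 were tested with edgeR 4.0.16 (quasi-likelihood F test, robust, TMM, Benjamini-Hochberg adjustment over all features, threshold 0.05) in R 4.3.3. CPM are counts scaled to 1000000 gene counts per library, log2 differences are those of the fit, and adjusted p in the text always means this test. The libraries held 6266798 to 9860369 gene counts, so low genes rest on few counts, and intervals for genes with 1 to 3 counts are exact at 95% and cover counting error only.

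Of 29199 filtered sites, 27332 were placed in 1 RefSeq gene (GRCm38.p6) by position and strand, counting 1000 bp past the gene's end as part of it. Usage was tested on site counts with the log of the gene total plus 0.5 as offset, for sites that held 5% or more of their gene's tags where the gene's mean count reached 50, leaving out genes whose site total was under 0.3 or over 1.5 times the gene count. The gene test was tested on simulated data in a run of 12065 genes. It found 13 of 50 genes at a 1.5-fold change, 34 of 50 at 2-fold and 46 of 50 at 4-fold. There were 13 false calls. A gene that did not pass may therefore still differ by a small fold.

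The gene lists, members and naming rules were chosen with earlier results of these data known. Named were all clock list genes, the 12 largest rises and falls, up to 5 called members of each other list, 8 genes of the test against other times, 8 usage sites and up to 6 genes within 10 Mb of Arntl. The 8 usage sites, 1 per gene, had the largest differences in share among called sites without overlap. Their genes had a mean of at least 100 counts. Some genes that these rules name are not reported here. Alternatives were DESeq2 1.42.0, other scaling and filters, the replicate number as block or set, and fewer libraries.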

Additional observations from a re-analysis of the deposited data

Results flagged for a closer look

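In 20 of the 302 groups of 6 libraries examined, 1 library stood apart from the other 5 by more than Dixon's 95% limit for a group of that size. Chance alone gives about 1 in 20 such groups where values follow a normal distribution. That rate need not hold for genes near 0 CPM. In Bmal1-/- replicate 1, 3930402G23Rik stood at 20.1 CPM against 1.72 to 6.57 in the other 5, Saa3 at 9.35 against 3.25 to 4.57, Gstm1 at 1662 against 2638 to 3135 and Gstm2 at 166 against 275 to 330. The erythroid marker sum of that library was 3528 CPM against 884 to 1831. In Bmal1-/- replicate 2, Cyp2a4 stood at 2.84 CPM against 1.07 to 1.62, Mup-ps8 at 2.05 against 0 to 0.232 and the share of the Pnkd site at 8.77% against 16.3 to 20.2%. In Bmal1-/- replicate 4, Crym stood at 7.50 CPM against 1.99 to 2.90, Nags, which makes the activator of the urea cycle, at 47.1 against 37.2 to 38.4, and Noct at 7.82 against 0.153 to 2.32.

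Among the wild-type libraries, replicate 1 was high for Tox2 (2.07 CPM, the others 0.830 to 1.06) and Slc34a2 (0.326, the others 0 to 0.122). The flag for Slc34a2 rests on 4 counts in all wild-type libraries and that for Gm43158 on 1. Replicate 2 was high for Ccnd1 (79.7 CPM, the others 22.2 to 42.2) and for the Kupffer cell marker sum (1169, the others 244 to 534). Replicate 3 was high for Saa1 (182 CPM, the others 53.8 to 97.9), replicate 4 for Gm43158 (0.138, the others 0), replicate 5 for Socs2 (29.7, the others 9.14 to 15.2) and the pancreatic marker sum (2.89, the others 0 to 0.968), and replicate 6 for Mup-ps8 (31.0, the others 2.32 to 7.84).

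Clock list genes and the genes named by the test against the other times were examined for that contrast, and other named genes were not. The difference between genotypes at ZT10 departed from its mean over the other 5 times in 22 of those examined. Genes outside the clock lists were chosen by their adjusted p in this same test, so their departure was fixed by the choice. Relative to that mean, the log2 difference at ZT10 was higher by 3.93 for Npas2, 2.98 for Arntl, 2.32 for Chka, 1.74 for Nfil3, 1.66 for Abtb2, 1.53 for Insig2, 1.47 for Slc30a10, 1.23 for Cry1, 1.13 for Nedd4l, 1.09 for Clock, 0.91 for Atp2a2 and 0.84 for Pnkd. The departure was -5.69 for Rgs16 (0.93, adjusted p 0.964, with replicates 1 to 3 only), -3.86 for Dbp, -2.36 for Usp2, -2.16 for Per3, -2.13 for Nr1d2, -1.90 for Gpcpd1, -1.75 for Wee1, -1.71 for Per1, -1.63 for Tef and -0.98 for Gys2.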

How the results depend on the processing

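Of 123 named genes called at ZT10, 75 kept their call in all 26 alternatives, 48 lost it in at least 1 and 0 changed direction. The number of genes called ran from 1909 to 2415 with 1 library left out and was 2688 by DESeq2. It was 1489 with replicates 1 to 3 only, of which 715 were lower, and 763 genes were lower without Bmal1-/- replicates 3 and 4. Genes changed at least 2-fold numbered 447 of those with a mean of at least 50 counts, where fewer genes were tested. Sites called numbered 1642 with replicates 1 to 3 only. Genes whose ZT10 difference departed from the other times numbered 61 with replicates 1 to 3 and 61 with 4 to 6, and that for Rgs16 turned to 0.93 with replicates 1 to 3; the cause was not tested. Settings that left out pairs of Bmal1-/- or sets of 3 wild-type libraries were chosen after seeing the data.

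Site usage varied more: 25 sites passed with edgeR's diffSpliceDGE, 4 with replicates 1 to 3, 94 with 4 to 6, and 124, 10 and 26 without Bmal1-/- replicates 1 and 2, 3 and 4, and 5 and 6. Leaving out 1 library gave 28 (without Bmal1-/- replicate 3) to 69 (without Bmal1-/- replicate 2). The most 3′ share differed by 0.013 points with replicates 4 to 6, with reversed sign. Genes that did not pass also turned: with replicates 4 to 6 the log2 difference was 0.037 for Per2, -0.21 for Cry2 and 0.055 for Bhlhe40, without Bmal1-/- replicates 1 and 2 it was -0.00047 for Rora and -0.039 for Cry2, and without wild-type replicates 1 to 3 it was -0.032 for Cry2. The cause of these changes was not tested.

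Wild-type and Bmal1-/- libraries share replicate numbers, but same-numbered libraries deviated together only weakly (correlations 0.00466 to 0.177), and not every library correlated best with its own number. With the number as a block, 2344 genes, 2838 sites, 211 genes of the test against other times and 164 usage sites passed, and 4 lipogenesis genes fell.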
